A study of Homo sapiens with 9 samples.

Results

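The 10 genes described here serve serine synthesis, one-carbon metabolism and the amino acid supply tied to both: PHGDH, PSAT1, PSPH, SHMT1, SHMT2, MTHFD2, SLC1A4, SLC1A5, ASNS and ATF4. They were taken by symbol, for their function, from the 58381 genes of the deposited tables. Expression was measured by RNA-seq in TC-32, a widely used human cell line from an Ewing sarcoma, whose driver is the fusion oncogene EWSR1::FLI1. The cells were transduced with the lentiviral vector pLOC, which held either a red fluorescent protein (RFP, the control) or a cDNA of ETS1, a transcription factor of the same ETS family as the FLI1 part of the fusion. They were then selected with puromycin and sorted as single cells. The ETS1 cells are labelled ETS1-Low and ETS1-High, and each of the 3 groups had 3 libraries, all of which share the fusion, the vector and the selection. The labels give neither the number of clones in a group nor whether the RFP cells are a clone, and they leave unsaid whether the libraries of a group are separate cultures. A p-value therefore measures only the spread between these libraries, which may be technical, and a difference made by ETS1 cannot be told apart from one between clones.

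Cells make serine from the glycolytic intermediate 3-phosphoglycerate through PHGDH, PSAT1 and PSPH. The serine hydroxymethyltransferases SHMT1 and SHMT2 then split serine into glycine and a folate-bound carbon unit, which MTHFD2 oxidises in mitochondria for use in nucleotide synthesis and methylation. ATF4 is a transcription factor made when amino acids are short or the endoplasmic reticulum is under stress; its protein is set largely by translation, and it is known to activate most of the other genes described here, through sites that it binds together with C/EBP proteins. Ewing sarcoma lines are known for high PHGDH, and EWSR1::FLI1 has been linked to the expression of serine synthesis genes.

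The totals of expected counts ran from 39484704 to 46654734 per library. ETS1 itself stood at 2.00 ± 0.174 CPM (counts scaled to a common, TMM-normalised library size; mean and SD, n = 3) in RFP, 10.6 ± 0.298 in ETS1-Low and 19.1 ± 0.806 in ETS1-High, in the order of the labels; reads of the cDNA and of the cells' own gene were not separated. Of the 8 Ewing sarcoma markers examined (among them CD99, NKX2-2 and NR0B1), none was at 0, and their summed level was 2687 to 2743 CPM of the library total in RFP, 3660 to 3738 in ETS1-Low and 3767 to 3814 in ETS1-High. The 9 markers of other cell types summed to 2.41 to 2.80 CPM in RFP, 4.44 to 5.04 in ETS1-Low and 7.41 to 7.93 in ETS1-High. The T cell marker CD3E was at 0 in every library, and the muscle marker MYOG in both ETS1 groups. Of the 4 with enough counts for the test used below, 2 were higher and 1 lower than RFP in each ETS1 group. Their log2 fold changes reached 6.66 in ETS1-High and 5.20 in ETS1-Low, and the lowest was −6.70 in both. The part of these markers in the results below was not tested.

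All 10 genes passed the filter on low counts, and most of them differed between the groups, as most genes of these libraries did. In ETS1-High against RFP, 2 of the 10 were higher and 7 lower at an adjusted p under 0.05 (edgeR quasi-likelihood test), where 74.2% of all 17235 genes tested passed, 37% higher and 37.2% lower. Their median log2 fold change was −0.40 beside −0.01 over all genes. In ETS1-Low against RFP, 4 were higher and 4 lower, with a median of 0.01 beside 0.01, where 74.1% of all genes passed, 37.9% higher and 36.2% lower. In ETS1-High against ETS1-Low, 3 were higher and 7 lower, with a median of −0.24 beside −0.00, where 59.2% of all genes passed, 29.9% higher and 29.3% lower. The count of genes called was thus close to that of the libraries as a whole in the comparisons with RFP, and the direction in ETS1-High was mostly downward. Both comparisons with RFP use the same 3 RFP libraries. In the FPKM values without a filter, 38.1% of the calls in ETS1-High against RFP were higher, in place of 49.8% in counts, and 36.5% in place of 51.2% in ETS1-Low against RFP. In bulk RNA, fewer cells that express a gene and less RNA per cell cannot be told apart. The libraries of both groups did not overlap for 9, 8 and all 10 genes in these comparisons, beside 75.5%, 76% and 63.2% of all genes. Only ASNS changed by at least 2-fold, in both comparisons with RFP and in none between the ETS1 groups, where 21%, 20.6% and 9.74% of all genes did so. When a change of more than 1.2-fold was required, 4 of the 10 still differed between ETS1-High and ETS1-Low, where 27.3% of all genes did so. Against RFP, SLC1A5 and ATF4 in ETS1-High and MTHFD2 in ETS1-Low no longer passed under that requirement.

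**Figure D1:**
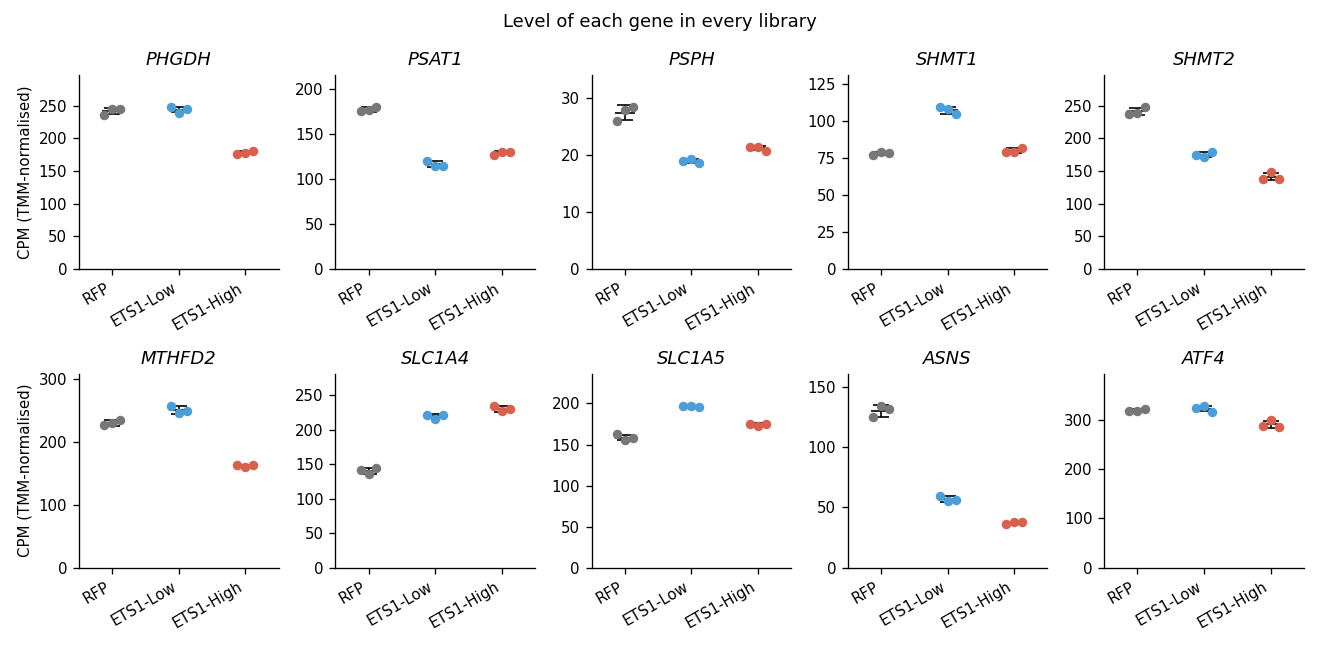
Level of each of the 10 genes in every library, in CPM on TMM-normalised library sizes, with each vertical axis starting at 0. Coloured points are libraries, and black bars are the mean and SD of 3 libraries. ASNS falls from 125 to 134 CPM in RFP to 36.0 to 38.1 in ETS1-High, while SLC1A4 is higher in both ETS1 groups.

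ASNS, asparagine synthetase, makes asparagine from aspartate and glutamine and is among the most used readouts of ATF4 activity. It showed the largest change of the 10 genes. GENCODE places it at chr7:97851677-97872542 (GRCh38, minus strand). Its level was 125, 134 and 132 CPM in the RFP libraries, 59.4, 55.4 and 56.3 in ETS1-Low, and 36.0, 37.6 and 38.1 in ETS1-High. The groups did not overlap, and every ETS1-High library lay below every ETS1-Low library. ASNS was 2.29-fold lower in ETS1-Low than in RFP (log2 fold change −1.19, SE 0.03, adjusted p = 6.09e-34) and 3.50-fold lower in ETS1-High (−1.81, SE 0.04, adjusted p = 4.41e-41). The step from ETS1-Low to ETS1-High was −0.61 (SE 0.04, adjusted p = 1.9e-19). The tested genes within 10 Mb of ASNS had medians of −0.10, −0.03 and 0.02 on the log2 scale in these comparisons; as a group they hardly moved. ASNS counts were not whole numbers in 9 of 9 libraries, which means that reads were divided between genes: it shares exons on its own strand with ENSG00000284707, which held 120.62 to 277.26 counts per library against 1417 or more for ASNS, and the pseudogene ASNSP1 held at most 2 counts.

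ATF4 binds, with C/EBP partners, a composite element whose core can be written TGATGNAA. That core was searched on both strands of the RefSeq promoter windows (GRCh38.p14), each 250 bases before to 50 after an annotated start, which cover 8 of the 10 genes in 13 windows. It was found in 3 windows, of ASNS, SLC1A5 and SLC1A4, or 23.1% beside 3.62% of all 35116 windows. The stretches around these 3 matches are shown because these genes include the largest fall and the largest rise of the set; they are written 5′ to 3′ on the strand of the gene, with the match in capitals. The match of SLC1A4 reads the core on the opposite strand, and its last base is the first of the transcript.
ASNS, chr7:97872458-97872487, minus strand, 79 to 50 bases before the start: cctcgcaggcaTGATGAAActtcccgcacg
SLC1A5, chr19:46784894-46784964, minus strand, 150 to 80 bases before the start: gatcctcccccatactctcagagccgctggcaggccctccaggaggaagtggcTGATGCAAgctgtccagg
SLC1A4, chr2:64989299-64989399, plus strand, from 100 bases before the start to its first base: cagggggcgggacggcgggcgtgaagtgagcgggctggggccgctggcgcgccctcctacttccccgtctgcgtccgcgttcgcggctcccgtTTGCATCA
Several of these genes have more than 1 annotated start, so each match lies in front of only 1 of them. In GENCODE, the ASNS stretch lies inside the first exon of a longer transcript of the gene, and the other two lie within introns of transcripts that start further upstream, apart from the last bases of each. The ETS core CCGGAA was in 1 of the 13 windows, a second ASNS window, beside 17.2% of all windows. A pair of GGAA repeats, GGAAGGAA, overlaps that match and was in the same window alone, beside 3.67% of all windows. The longer ETS consensus CCGGAAGT was in none of the 13, beside 4.14%. A match is a description of letters in a window, not of binding, and these motifs were chosen after the data had been seen. The 3 genes with the core did not move alike: ASNS fell in both ETS1 groups, and SLC1A4 and SLC1A5 rose in both.

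The 3 enzymes of serine synthesis were lower in ETS1-High than in RFP, by between 0.37 and 0.46 on the log2 scale. In ETS1-Low, PSAT1 and PSPH fell further, and PHGDH stood at the RFP level. PHGDH, which catalyses the first and committed step, lies at chr1:119648411-119744218. Its level was 236, 245 and 245 CPM in RFP, 248, 239.6 and 245 in ETS1-Low, and 176, 178 and 181 in ETS1-High. The ETS1-High libraries lay below all others, and those of RFP and ETS1-Low overlapped. PHGDH fell by 0.44 in ETS1-High against RFP (SE 0.03, adjusted p = 8.92e-19) and by 0.45 against ETS1-Low (adjusted p = 9.6e-19). Against RFP, the ETS1-Low difference was 0.01 (SE 0.03, adjusted p = 0.713), and its sign depended on which library was left out, between −0.01 and 0.03.

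PSAT1, the aminotransferase of the second step, lies at chr9:78297125-78330093. It stood at 176, 176 and 179.9 CPM in RFP, 120.1, 114 and 115 in ETS1-Low, and 127, 130.4 and 130.0 in ETS1-High. Its lowest libraries were those of ETS1-Low, and no 2 groups overlapped. It fell by 0.61 in ETS1-Low (SE 0.03, adjusted p = 6.94e-24) and by 0.46 in ETS1-High (adjusted p = 4.12e-19), and the step from ETS1-Low to ETS1-High was 0.15 (adjusted p = 3.38e-05). Here the surroundings moved too: the 40 genes tested within 10 Mb were lower in ETS1-Low than in RFP for 77.5% of them, with a median of −0.54; in ETS1-High the median was 0.03 when set against RFP and 0.56 when set against ETS1-Low. Over the 10 genes within 5 Mb these medians were −0.29, 0.41 and 0.66. Over 488 tested genes of chromosome 9 they were −0.53, −0.07 and 0.45, closer to those within 10 Mb. The part of that regional shift in the PSAT1 values was not tested.

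PSPH, the phosphatase that releases free serine, lies at chr7:56011051-56051604 and had the lowest FPKM of the 10. It stood at 26.0, 27.9 and 28.4 CPM in RFP, 19.0, 19.4 and 18.6 in ETS1-Low, and 21.4, 21.5 and 20.8 in ETS1-High. As for PSAT1, RFP was highest and ETS1-Low lowest, without overlap. It fell by 0.53 in ETS1-Low (SE 0.05, adjusted p = 1.29e-13) and by 0.37 in ETS1-High (SE 0.05, adjusted p = 2.93e-09), and ETS1-High stood 0.16 above ETS1-Low (adjusted p = 0.0065). Genes within 10 Mb of PSPH had medians of −0.08 for ETS1-Low and −0.16 for ETS1-High, both against RFP. Within 5 Mb these were 0.14 and 0.15. On the FPKM scale, which is per transcript length, the ratio of PSAT1 to PSPH was 4.70 ± 0.0929 in RFP, 4.65 ± 0.0167 in ETS1-Low and 4.64 ± 0.352 in ETS1-High (SD, n = 3). The ratio of PHGDH to PSAT1 was 1.94 ± 0.102, 3.00 ± 0.158 and 1.94 ± 0.131 in the same order. The group means of the first ratio thus differed by less than the SD within RFP, and PHGDH stood higher against PSAT1 in ETS1-Low.

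The mitochondrial SHMT2 fell in both ETS1 groups, and the cytosolic SHMT1, which catalyses the same reaction, rose in ETS1-Low alone. SHMT2, at chr12:57229573-57234935, stood at 238, 239 and 248 CPM in RFP, 175, 172 and 178 in ETS1-Low, and 138, 148 and 138 in ETS1-High. The 3 groups were stepped, with no overlap. SHMT2 fell by 0.46 in ETS1-Low (SE 0.03, adjusted p = 5.6e-19) and by 0.77 in ETS1-High (SE 0.03, adjusted p = 8.39e-28), the largest fall after that of ASNS, and by 0.31 between ETS1-Low and ETS1-High (adjusted p = 3.76e-12). Its neighbours within 10 Mb had medians of 0.04, 0.01 and −0.01.

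SHMT1, at chr17:18327860-18363563, stood at 76.8, 79.3 and 78.6 CPM in RFP, 109.5, 108 and 105 in ETS1-Low, and 79.4, 79.1 and 82.0 in ETS1-High. The ETS1-Low libraries lay above all others, and RFP and ETS1-High overlapped. SHMT1 rose by 0.46 in ETS1-Low (SE 0.03, adjusted p = 2.53e-18), and ETS1-High was 0.42 below ETS1-Low (log2 fold change −0.42, adjusted p = 1.52e-16). The difference of ETS1-High from RFP was 0.04 (SE 0.03, adjusted p = 0.319). Genes within 10 Mb of SHMT1 had medians of −0.06 for ETS1-Low and −0.11 for ETS1-High, both against RFP. In FPKM, SHMT2 was 3.86, 3.72 and 3.70 times SHMT1 in the RFP libraries, 1.95, 1.90 and 2.08 times in ETS1-Low, and 2.01, 2.36 and 2.09 times in ETS1-High. The ratio was therefore lower in both ETS1 groups, through the fall of SHMT2 in ETS1-High and through changes of both genes in ETS1-Low.

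**Figure D2:**
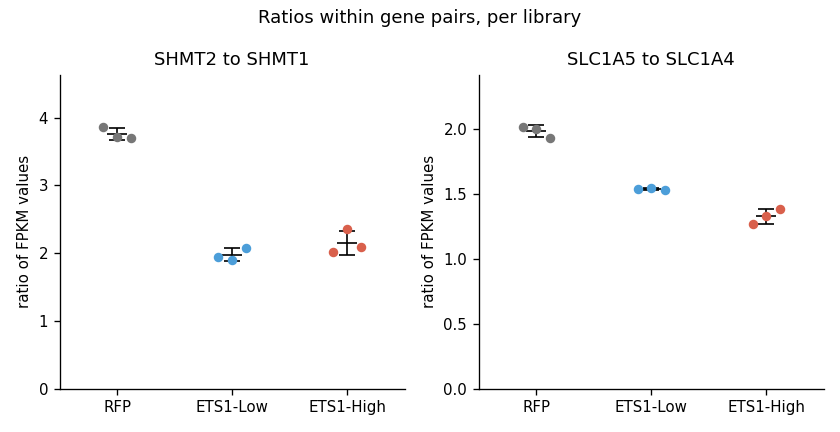
Ratio of FPKM values within 2 pairs of related genes in every library: SHMT2 to SHMT1 (mitochondrial and cytosolic serine hydroxymethyltransferase) and SLC1A5 to SLC1A4 (neutral amino acid transporters of 1 family). Points are libraries and bars are the mean and SD (n = 3). The first ratio is 3.70 to 3.86 in RFP and 1.90 to 2.36 in the ETS1 groups; the second steps down from RFP to ETS1-Low to ETS1-High.

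MTHFD2, the mitochondrial dehydrogenase and cyclohydrolase that acts after SHMT2, lies at chr2:74186172-74217565. It stood at 226, 229 and 234 CPM in RFP, 257, 245 and 248 in ETS1-Low, and 162, 160.3 and 163 in ETS1-High. The ETS1-High libraries were lowest and the ETS1-Low libraries highest, without overlap. MTHFD2 fell by 0.50 in ETS1-High against RFP (SE 0.03, adjusted p = 5.66e-21) and by 0.63 against ETS1-Low (SE 0.03, adjusted p = 3.06e-24). Its rise in ETS1-Low against RFP was 0.12 (SE 0.03, adjusted p = 0.000203) in counts, and in the deposited FPKM values the difference was −0.02 (adjusted p = 0.492), so that no direction holds on both scales. The median of genes within 10 Mb was 0.32 for ETS1-High and 0.30 for ETS1-Low, both against RFP. Over 829 tested genes of chromosome 2 it was 0.46 and 0.32.

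Both transporters rose in both ETS1 groups, SLC1A4 by more than SLC1A5. SLC1A4 (ASCT1) exchanges serine, alanine and other small neutral amino acids and lies at chr2:64988477-65023865. It stood at 141, 136 and 145 CPM in RFP, 221, 216 and 222 in ETS1-Low, and 235, 227 and 230.4 in ETS1-High. All ETS1 libraries lay well above those of RFP. SLC1A4 rose by 0.64 in ETS1-Low (SE 0.03, adjusted p = 6.38e-25) and by 0.71 in ETS1-High (SE 0.03, adjusted p = 7.65e-27). Between the ETS1 groups the difference was 0.07 (SE 0.03, adjusted p = 0.0423); leaving out any of ETS1-Low replicates 1, 2 and 3 or ETS1-High replicates 1 and 3 raised that p to between 0.0598 and 0.163. With all libraries it was 0.0754 under upper-quartile factors and 0.0682 with no filter on low counts. The genes within 10 Mb had medians of 0.25 and 0.29 against RFP, in the same direction as SLC1A4. Over 829 tested genes of chromosome 2 these medians were 0.32 and 0.46. The part of that shift in the SLC1A4 values was not tested.

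SLC1A5 (ASCT2), a major importer of glutamine in proliferating cells, lies at chr19:46774883-46788594. It stood at 162, 155 and 158 CPM in RFP, 197, 197 and 196 in ETS1-Low, and 175, 173 and 175 in ETS1-High. RFP was lowest and ETS1-Low highest, without overlap. SLC1A5 rose by 0.31 in ETS1-Low (SE 0.03, adjusted p = 1.52e-13) and by 0.14 in ETS1-High (SE 0.03, adjusted p = 3.93e-05). In ETS1-High against RFP, SLC1A5 did not pass when more than 1.2-fold was required. Its neighbours within 10 Mb had higher medians, 0.39 and 0.37, so the gene rose no more than the region around it, and the part of the region was not tested. In FPKM, SLC1A5 was 1.99 ± 0.0456 times SLC1A4 in RFP, 1.54 ± 0.0067 times in ETS1-Low and 1.33 ± 0.0571 times in ETS1-High (SD, n = 3), with no overlap between groups.

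The ATF4 transcript fell slightly in ETS1-High. ATF4 lies at chr22:39519695-39522683, and stood at 318, 318 and 323 CPM in RFP, 324, 329 and 317 in ETS1-Low, and 288, 299 and 286 in ETS1-High. The ETS1-High libraries lay below all others, and RFP and ETS1-Low overlapped. ATF4 fell by 0.14 in ETS1-High against RFP (SE 0.03, adjusted p = 4.88e-05) and by 0.15 against ETS1-Low (adjusted p = 1.36e-05). ATF4 passed in neither of these comparisons when more than 1.2-fold was required. In ETS1-Low against RFP it differed by 0.02 (SE 0.03, adjusted p = 0.631) in counts, but by −0.15 (adjusted p = 0.000115) in FPKM, a scale on which the median of all genes shared by both fits was lower by 0.13. The median of genes within 10 Mb was 0.36 for ETS1-High and 0.45 for ETS1-Low. ATF4 counts were not whole numbers in 9 of 9 libraries, and its pseudogenes ATF4P1, ATF4P2 and ATF4P3 together held at most 15.1 counts in a library. ATF4 protein was not measured.

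**Figure D3:**
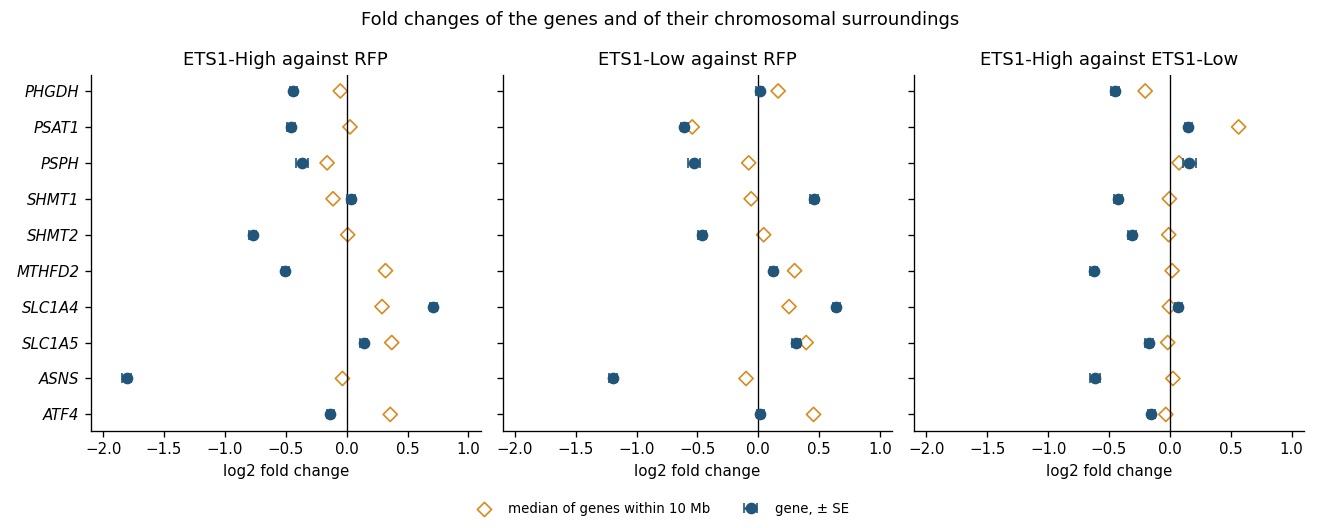
Log2 fold change of each gene (filled points, with SE) in the 3 comparisons, beside the median of the tested genes within 10 Mb (open diamonds). ASNS, at −1.81 and −1.19 against RFP, stands far from its surroundings, while PSAT1 in ETS1-Low, at −0.61, lies close to a local median of −0.54 (−0.29 within 5 Mb, −0.53 over chromosome 9).

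In FPKM, ATF4 was the most abundant of the 10 in every group, at 266.0 ± 2.79 in RFP, 240.2 ± 3.06 in ETS1-Low and 222 ± 3.40 in ETS1-High, followed by PHGDH at 186 ± 8.74, 172 ± 9.18 and 125 ± 7.28. PSPH was the least abundant in every group, at 20.4 ± 0.548, 12.3 ± 0.31 and 13.95 ± 0.905 (SD, n = 3). In RFP the order between them was SHMT2, MTHFD2, PSAT1, ASNS, SLC1A5, SHMT1 and SLC1A4, where PSAT1 and ASNS overlapped. ASNS moved from rank 6 in RFP, at 90.4 ± 6.11, to rank 9 in both ETS1 groups, at 34.7 ± 0.667 and 24.1 ± 0.885. MTHFD2 lay above SHMT2 in ETS1-Low, and these overlapped in ETS1-High; SHMT1 and SLC1A4 overlapped in ETS1-Low. All other neighbours in the order were apart in every group. Some exons of MTHFD2, SHMT1, SHMT2 and SLC1A5 overlap genes on the opposite strand; the kit keeps strand, but whether the counting used it is not given in the sources used here.

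Genes around the 10 were described by 10 lists, chosen from textbook knowledge and with earlier results of these data known. In the list of serine and glycine handling, 2 of 11 genes tested were higher and 8 lower in ETS1-High against RFP. The counts were likewise 2 and 8 in ETS1-Low, and the medians were −0.26 and −0.26. In both, 90.9% of the list passed, beside 74.2% and 74.1% of all genes. SFXN1, which carries serine into mitochondria, where SHMT2 uses it, fell from 153 ± 3.61 CPM in RFP to 116 ± 1.75 in ETS1-Low (log2 fold change −0.40) and 105 ± 1.16 in ETS1-High (−0.54), beside neighbours at −0.38 and −0.35. GLDC, the decarboxylase of glycine cleavage, fell from 25.4 ± 0.629 to 12.7 ± 0.594 in ETS1-Low (−1.0, adjusted p = 1.36e-22) and to 22.6 ± 0.444 in ETS1-High (−0.17, adjusted p = 0.00219); the median of genes within 10 Mb of it, on chromosome 9, was −0.43 for ETS1-Low against RFP. SRR, which converts L-serine to D-serine, fell by 0.65 in ETS1-Low and by 0.54 in ETS1-High. The 2 genes higher in ETS1-Low were SFXN2, a relative of SFXN1, and AMT, of glycine cleavage. SFXN2 rose by 0.52 in ETS1-Low (adjusted p = 2.3e-11) and by 0.15 in ETS1-High (adjusted p = 0.0211), where the rise was absent in FPKM (−0.00171). AMT rose by 0.47 in ETS1-Low (adjusted p = 0.00163) and did not pass the test in FPKM (0.20, adjusted p = 0.106). In FPKM, 5 genes of this list passed the test in ETS1-High against RFP where 10 did in counts.

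Folate cycle genes moved in both directions. Of 19 genes tested, 10 were higher and 6 lower in ETS1-High against RFP, and 12 higher and 4 lower in ETS1-Low, with medians of 0.18 and 0.20. In both, 84.2% of the list passed, beside 74.2% and 74.1% of all genes. In FPKM without a filter on low values, 5 were higher and 6 lower in ETS1-High, and 5 and 5 in ETS1-Low. TYMS, which makes thymidylate with a folate-bound carbon, rose from 82.5 ± 2.92 CPM to 199 ± 3.01 in ETS1-Low (1.27, SE 0.03) and 185 ± 4.99 in ETS1-High (1.17, SE 0.03), where its neighbours had medians of 0.70 and 0.73. ALDH1L1, which oxidises formyl-folate in the cytosol, rose from 3.74 ± 0.384 to 26.9 ± 1.15 in ETS1-Low (2.85, adjusted p = 7.5e-36) and to 6.96 ± 0.397 in ETS1-High (0.90, adjusted p = 2.06e-13). Its ETS1-Low libraries stood far above all others, and its neighbours had medians near 0 there (0.00) and in ETS1-High (0.12).

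Methionine and purine enzymes also moved in both directions. In the methionine cycle and transsulfuration, 3 of 8 genes tested were higher and 2 lower in ETS1-High against RFP, and 4 higher and 1 lower in ETS1-Low. The share that passed was 62.5% in both, beside 74.2% and 74.1% of all genes. MAT2A, which makes the methyl donor S-adenosylmethionine, rose from 271 ± 7.32 CPM to 430.0 ± 16.0 in ETS1-Low (0.67) and 380.1 ± 7.84 in ETS1-High (0.49); its neighbours moved the same way, with medians of 0.42 and 0.46. AHCY, which clears the product of methylation, rose from 402 ± 7.76 to 659 ± 8.45 (0.71) and 482 ± 6.08 (0.26), beside neighbours at −0.06 and −0.06. CTH, which makes cysteine from cystathionine, fell by 0.61 in ETS1-High and stood at −0.15 in ETS1-Low (adjusted p = 0.0639). In purine synthesis, 2 of 12 were higher and 5 lower in ETS1-High, and 3 higher and 2 lower in ETS1-Low. That is 58.3% and 41.7% of the list, beside 74.2% and 74.1% of all genes. In FPKM, with a mean of at least 1, 1 was higher and 11 lower in ETS1-High, and 3 higher and 8 lower in ETS1-Low. ATIC, which uses formyl-folate in the last steps of the pathway, rose by 0.80 in ETS1-High and by 0.83 in ETS1-Low, beside neighbours at 0.58 and 0.33.

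Other amino acid transporters moved in both directions. Of 15 tested, 7 were higher and 7 lower in ETS1-High against RFP, and 7 higher and 6 lower in ETS1-Low. These are 93.3% and 86.7% of the transporters tested, beside 74.2% and 74.1% of all genes. In these comparisons 5 and 3 of them differed by at least 2-fold, beside 21% and 20.6% of all genes. SLC7A11, the cystine importer, rose from 219 ± 9.57 CPM to 614 ± 4.25 in ETS1-Low (1.49, SE 0.03) and 490.3 ± 25.9 in ETS1-High (1.16, SE 0.03), beside neighbours at medians of 0.55 and 0.70. Within the SLC1 family, the glutamate transporter SLC1A1 rose by 0.95 and 1.02 in ETS1-Low and ETS1-High, beside neighbours at −0.54 and −0.14, and the glutamate transporter SLC1A3 fell from 64.5 ± 1.72 to 16.4 ± 0.901 (−1.97, adjusted p = 6.77e-37) and 6.54 ± 0.71 (−3.29, adjusted p = 5.42e-44). SLC1A3 thus went against SLC1A1, SLC1A4 and SLC1A5. Its neighbours had medians of −0.50 and −0.32.

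Among enzymes of proline, asparagine and glutamine metabolism, 5 of 14 were higher and 6 lower in ETS1-High against RFP, and 7 higher and 6 lower in ETS1-Low. Of this list, 78.6% and 92.9% passed, beside 74.2% and 74.1% of all genes. ASS1, which like ASNS uses aspartate, fell from 83.1 ± 3.31 CPM to 43.5 ± 1.51 in ETS1-Low (−0.93, adjusted p = 1.14e-25) and 25.1 ± 1.72 in ETS1-High (−1.72, adjusted p = 2.54e-35), beside neighbours at −0.55 and −0.12. ASRGL1, which breaks down asparagine, rose by 0.96 in ETS1-Low and by 0.36 in ETS1-High, where its neighbours stood at 0.46 and 0.42. PRODH, the first enzyme of proline breakdown, rose from 4.20 ± 0.424 to 17.5 ± 1.02 (2.06) and 29.6 ± 0.783 (2.82). All of these differed from RFP in both ETS1 groups without overlap between libraries.

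Known ATF4 target genes of the stress response were mostly lower in ETS1-High: 2 of 19 tested were higher and 15 lower than in RFP, with a median of −0.46. Of the list, 89.5% passed there, beside 74.2% of all genes (37% higher and 37.2% lower). In ETS1-Low, 5 were higher and 10 lower, with a median of −0.08, or 78.9% of the list beside 74.1% of all genes. CHAC1, which degrades glutathione, fell from 6.65 ± 0.53 CPM to 3.86 ± 0.122 in ETS1-Low (−0.79, SE 0.10) and 2.28 ± 0.085 in ETS1-High (−1.54, SE 0.11). SESN2, a leucine sensor that restrains mTORC1, stepped from 31.7 ± 1.42 to 22.2 ± 0.841 and 11.7 ± 0.588 (−0.52 and −1.44), as ASNS did. NFIL3, a transcription factor, changed by −3.09 in ETS1-Low and −2.48 in ETS1-High, beside neighbours at −0.62 and −0.05. ATF5, a relative of ATF4, rose by 0.79 in both, beside neighbours at 0.40 and 0.39. The core TGATGNAA was in 5 of 30 RefSeq promoter windows of this list (16.7% beside 3.62% of all windows). The ETS core CCGGAA was in 8 (26.7% beside 17.2%) and the longer CCGGAAGT in 2 (6.67% beside 4.14%).

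The cytosolic aminoacyl-tRNA synthetases, which load tRNAs and many of which ATF4 is known to activate, were lower in ETS1-High for 15 of 20 genes and higher for 2, with a median of −0.25. In ETS1-Low, 7 were higher and 11 lower, with a median of −0.09. Of the list, 85% passed in ETS1-High and 90% in ETS1-Low, beside 74.2% and 74.1% of all genes. LARS1 stepped from 449 ± 8.82 CPM to 328 ± 6.62 in ETS1-Low (−0.45) and 255 ± 4.70 in ETS1-High (−0.81), and MARS1, from 249.7 ± 4.98 to 176 ± 1.90 (−0.51) and 162 ± 1.75 (−0.63). TARS1 and IARS1 were lowest in ETS1-Low (−0.78 and −0.69), where their neighbours had medians of −0.40 and −0.62. Neighbours of LARS1 stood at −0.43 in ETS1-Low and −0.40 in ETS1-High, and those of MARS1 at 0.04 and 0.01. The core TGATGNAA was in 7 of 21 windows of these genes (33.3% beside 3.62% of all windows). The ETS core CCGGAA was in 14 of the 21 (66.7% beside 17.2% of all windows), and CCGGAAGT in 5 (23.8% beside 4.14%).

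Upstream of ATF4, eIF2 kinases and other regulators divided, with 4 of 16 higher and 9 lower in ETS1-High against RFP and 6 higher and 7 lower in ETS1-Low. The share that passed was 81.2% in both, beside 74.2% and 74.1% of all genes. NFE2L2, known to act through ATF4 on serine synthesis genes, rose from 87.5 ± 0.967 CPM to 107 ± 2.88 in ETS1-Low (0.29) and 147 ± 0.893 in ETS1-High (0.75), beside neighbours at 0.34 and 0.55. MYCN fell from 17.8 ± 0.29 to 1.18 ± 0.375 and 2.30 ± 0.204 (−3.92 and −2.95), against neighbours at 0.32 and 0.30. The kinase EIF2AK2, which halts translation through eIF2, rose by 0.50 and 0.39, beside neighbours at 0.28 and 0.31.

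Glycolysis, which feeds 3-phosphoglycerate to PHGDH, showed 5 of 19 genes higher and 12 lower in ETS1-High against RFP, and 12 higher and 5 lower in ETS1-Low, with medians of −0.12 and 0.17. Of this list, 89.5% passed in both, beside 74.2% and 74.1% of all genes. Between the ETS1 groups, 15 were lower and 3 higher in ETS1-High, where 59.2% of all genes passed, 29.9% higher and 29.3% lower. PFKP, the platelet-type phosphofructokinase, rose from 108 ± 2.52 CPM to 241 ± 3.63 in ETS1-Low (1.16) and 177 ± 3.89 in ETS1-High (0.71). The glucose transporter SLC2A3 fell from 72.3 ± 0.993 to 20.7 ± 0.771 (−1.80) and 17.4 ± 1.30 (−2.05), and LDHA, which makes lactate, rose by 0.35 and 0.61, beside neighbours at 0.33 and 0.25.

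**Figure D4:**
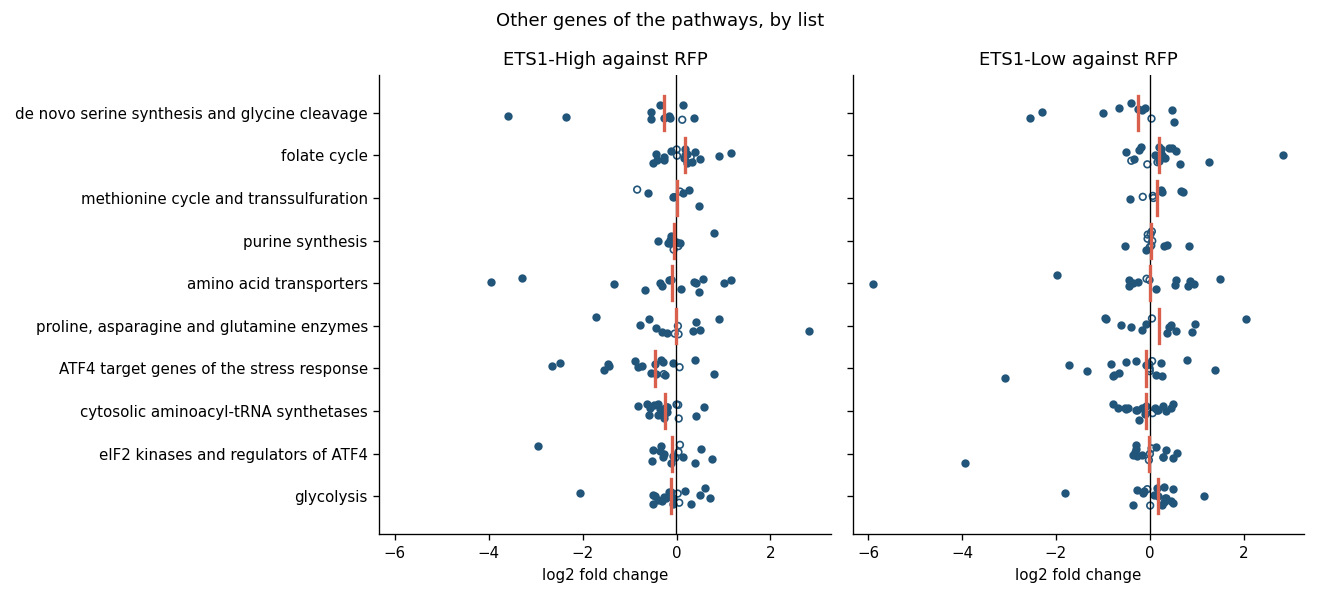
Log2 fold change of each tested gene of the 10 pathway lists in ETS1-High (left) and ETS1-Low (right) against RFP. Filled points passed the test, open points did not, red bars are list medians, and the black line is the median of all genes. The medians of the ATF4 targets (−0.46) and of the tRNA synthetases (−0.25) lie left of the line in ETS1-High, and that of the folate cycle (0.18) lies right of it.

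The genes whose pattern over the 9 libraries was most like that of PHGDH were PTGFRN, CCDC25 and DPH5, with mean absolute differences of 0.0198, 0.0241 and 0.0242 in log2 CPM centred on RFP, beside a median of 0.302 over the 12399 genes compared. For ATF4 they were RPS27, PDCD2 and WAC, at 0.0141, 0.0146 and 0.018, beside a median of 0.245. None of these 6 stands among the 10 genes.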

How the data were processed

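RNA-seq of 9 TC-32 libraries was analysed. The authors deposited RSEM expected counts per gene and RSEM FPKM values (per length and library size), per the file headers. The submitters' processing notes list cutadapt 4.4, STAR 2.7.3, featureCounts, Subread 2.0.3 and limma 3.38.3 with the build GRCh38; the RSEM version and the annotation release are not given in the sources used here. Groups come from the sample titles. Columns without a library numbered 0. Replicates differed by more than sampling noise (chi-square per gene 2.66 to 5.19), so each was counted separately.

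Expected counts were rounded and tested with the edgeR 4.0.16 quasi-likelihood test (R 4.3.3) after TMM normalisation and filterByExpr, in 1 fit of all 9 libraries, with Benjamini-Hochberg adjustment over the 17235 genes tested; calls needed an adjusted p under 0.05. Levels are CPM on TMM-normalised library sizes. FPKM entered for levels between genes and, with limma 3.58.1 on log2(FPKM + 1), as an alternative; a fold change there is on that scale. Positions are GENCODE v44 by identifier (99.1% of tested genes). Neighbours are tested genes with a mean log2 CPM above 1 within 10 Mb. The steps were tested on simulated data, with 50 genes changed at each fold in ETS1-High against RFP. Changes of 1.25, 1.5, 2 and 4-fold were recovered for 58%, 70%, 84% and 96% of them.

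The 10 genes, the 10 lists (165 symbols) and the naming rule were chosen with earlier results of these data known. Named from each list were genes called without overlap between libraries and with a mean of at least 100 counts: the 2 largest changes each way against RFP and the largest between the ETS1 groups; fewer are given here, and some results that the rule selected are not reported here. Alternatives were other size factors, DESeq2 1.42.0, other filters, a block for the replicate number, fits of the 2 groups compared, leaving out each library, FPKM, and glmTreat against 1.2-fold; those on the lists were chosen after seeing the data. Replicate numbers were not taken as pairs (same-numbered libraries correlated in their deviations at r = −0.0933 to 0.112). The libraries were amplified and carry no molecular identifiers named in the labels.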

Additional observations from a re-analysis of the deposited data

Results flagged for a closer look

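MTHFD2 was called in opposite directions against RFP in the 2 ETS1 groups, and the difference between these groups, tested directly as ETS1-High against ETS1-Low, was −0.63 on the log2 scale (−0.50 and 0.12 against RFP, adjusted p = 3.06e-24 for the difference); the rise in ETS1-Low was absent in FPKM. Among the named genes of the pathway lists, 6 others met the same condition. CEBPB, a C/EBP factor, differed by −0.72 (−0.46 and 0.25 against RFP), IMPDH2, of guanine nucleotide synthesis, by −0.70 (−0.40 and 0.30), and HK1, a hexokinase, by −0.82 (−0.50 and 0.32). SLC46A1, the proton-coupled folate transporter, differed by −0.74 (−0.50 and 0.24) in counts. In FPKM its level was lower in both ETS1 groups, at 2.47 ± 0.09 in RFP, 1.96 ± 0.0153 in ETS1-Low and 1.36 ± 0.139 in ETS1-High (SD, n = 3), so its opposite directions hold in counts alone. AHCYL1, a relative of AHCY, differed by −0.33 (−0.07 and 0.26), where its call in ETS1-High against RFP was lost without RFP replicate 3 or without any 1 of the ETS1 libraries (adjusted p from 0.051 to 0.158). FPGS, which retains folates in the cell, went the other way and differed by 0.45 (0.22 and −0.23), with neighbours within 10 Mb at a median of 0.43; in FPKM its RFP and ETS1-High libraries overlapped. Groups of 3 libraries were not examined for single outlying libraries.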

How the results depend on the processing

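Of 600 recomputed fold changes of the 10 genes, 578 kept their direction and side of the threshold, 16 no longer passed it and 6 turned. The turned ones were in ETS1-Low against RFP in FPKM: MTHFD2 at −0.0237 (pseudocount 1, with or without the filter) and −0.0238 (pseudocount 0.1), and ATF4 at −0.147 in all 3 fits. FPKM lowered the median of shared genes by 0.11 (ETS1-High against RFP) and 0.13 (ETS1-Low against RFP), with pseudocount 1, and without a filter the share of calls that were higher was 38.1% and 36.5% in place of 49.8% and 51.2%. Requiring more than 1.2-fold left 4 genes called in ETS1-High against ETS1-Low in place of 10, and 4703 in place of 10196 over all genes (8334 in place of 12785 and 8386 in place of 12773 against RFP); it asks for a larger change. Leaving out 1 library gave 9 to 9, 8 to 8 and 9 to 10 genes called in ETS1-High against RFP, ETS1-Low against RFP and ETS1-High against ETS1-Low. With the replicate number as a block the counts were 9, 8 and 10, as without it; 4 of 9 libraries correlated best with their own number. For the pathway lists, 33 of the recomputed counts moved by more than 1.5 times, under FPKM or the 1.2-fold requirement. Fold changes were recomputed for a list gene only in the comparison where the naming rule selected it. Among these, 6 turned, all in FPKM in ETS1-High against RFP: SFXN2 at −0.00171 and −0.00192, and GMPS at −0.121 and −0.123. SLC46A1 in ETS1-Low against RFP was not recomputed, and its direction also differed between counts and FPKM levels. Of 60 local medians recomputed within 5 Mb or over the chromosome, 35 moved by more than the SE of the gene and 9 changed sign. Reads shared between genes limit ASNS and ATF4, and the number of clones per group limits every comparison.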
